A study of Homo sapiens with 4 samples.

Results

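The G2/M and mitosis genes are 50 genes that carry a cell from the end of DNA replication through chromosome segregation to cell division. They were taken by name from the count tables as mitotic kinases, checkpoint, kinetochore, spindle motor and condensin genes with 2 of their transcription factors, and all 50 were matched to 1 gene ID each among 57773 listed IDs. All 50 had enough counts for a test, as did 16090 genes in all. Polyadenylated RNA of MIA-PaCa2, an established human pancreatic cancer line, was sequenced in 2 libraries of untreated cells and 2 of cells resistant to AMG510 (sotorasib, a drug that lowers RAF-MEK-ERK signalling). The resistant cells came from culture under stepwise larger doses over 2 months, ending at 5 µM. All cells were kept in DMEM with serum, and no other agent or allele is named. Whether drug was present when RNA was taken, and whether the resistant cells are clonal, is not stated.

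As background, CDK1 bound to cyclin B starts mitosis once CDC25 phosphatases remove the inhibitory phosphates that WEE1 and PKMYT1 put on it. The spindle checkpoint then holds the anaphase-promoting complex (APC/C) back until every kinetochore is attached, after which separase cuts cohesin and the cell divides. Most of these genes are transcribed late in the cell cycle by a complex of MuvB with MYBL2 and FOXM1, and in the DREAM form MuvB represses them in resting cells. In pancreatic cancer, as in other tumours, their level is used as a measure of how much a population is cycling.

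Mitotic genes were more often lower than higher in resistant cells. Of the 50 genes 26 (52%) fell and 2 rose, where 17.4% of all tested genes were called lower and 16.6% higher (34.0% in either direction). Here a call, and the words fell and rose, rest on p below 0.05 in edgeR's quasi-likelihood test after Benjamini-Hochberg adjustment over all 16090 genes, and every adjusted p below is of that kind. The median log2 fold change, resistant over untreated, was −0.52 over the 50 genes and −0.01 over all tested genes. Values of the 2 groups did not overlap for 41 of the 50 genes, against 70.9% of all tested genes, with the resistant libraries lower for 38 (36.3% of all tested genes) and higher for 3 (34.6%). The steepest falls were in SPC25 (−1.87), CDC25A (−1.75), MYBL2 (−1.60) and MKI67 (−1.44), and the risers were CDC25B (1.09) and ANLN (0.65). Without untreated replicate 1 the test called 13 of the 50 lower, and 1322 genes lower in all against 2794 with all 4 libraries. In bulk RNA, fewer cells in mitosis and less mitotic RNA per cell cannot be told apart.

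**Figure D1:**
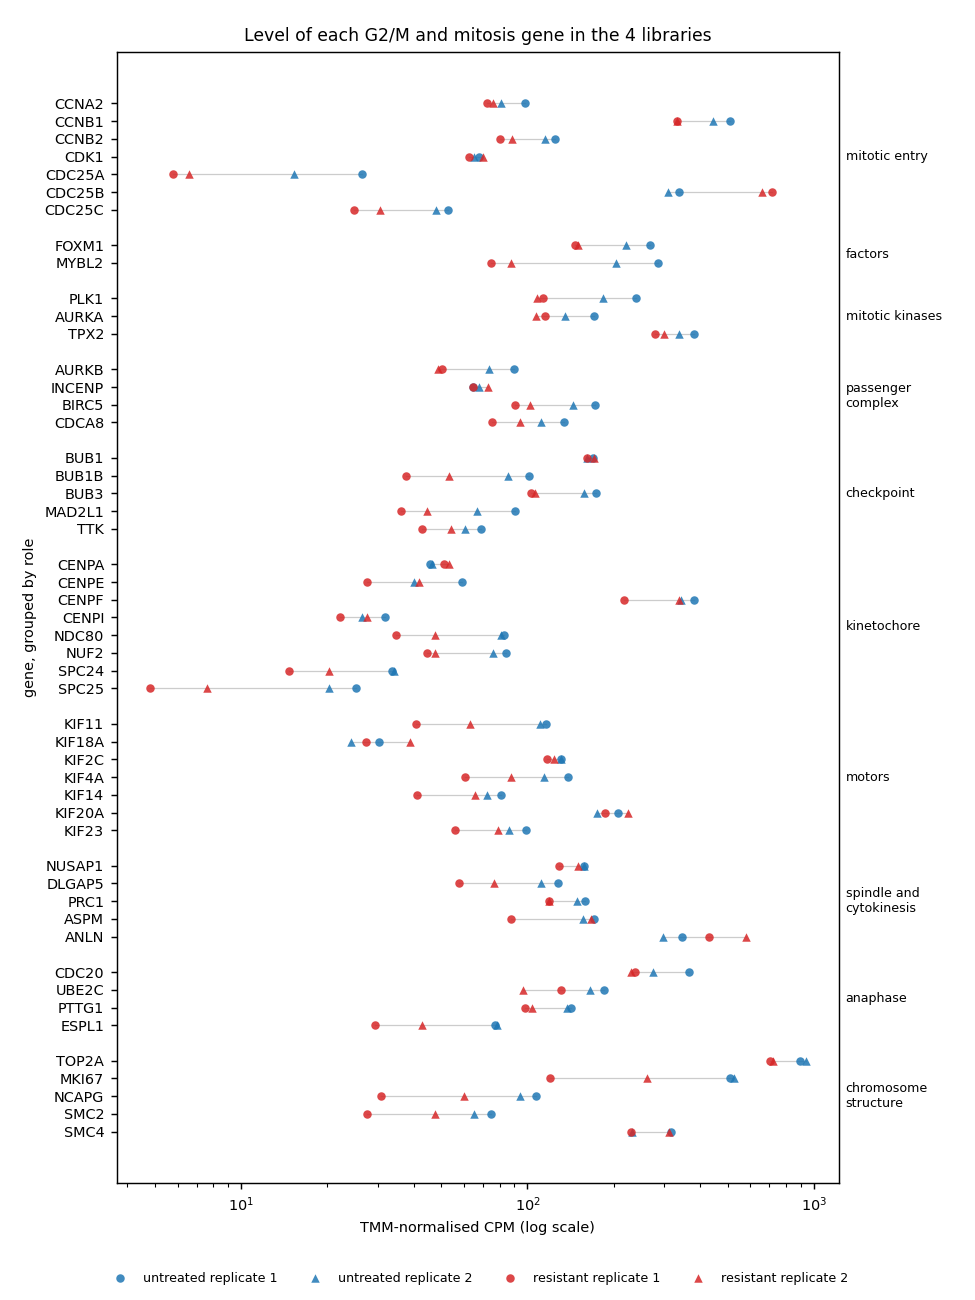
Level of each of the 50 genes (rows, by role) in the 4 libraries, in CPM on a log axis; circles are replicate 1, triangles replicate 2, blue untreated, red resistant. Red points lie left of both blue points for 38 genes and right of both for CDC25B, ANLN and CENPA.

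Levels are given in CPM, expected counts scaled to library size with TMM factors, with untreated replicates 1 and 2 before resistant replicates 1 and 2. Libraries held 30146559 to 38052558 expected counts. Nothing states that replicates were separate cultures, so every p describes only how far these libraries differ and that spread may be technical. The epithelial keratins KRT8 and KRT18 lay between 957 and 3091 CPM and KRT19 between 133 and 259.6 CPM, while KRT7, EPCAM and CDH1 were at 2.09 CPM or less. The 6 epithelial markers summed to 5635 and 3956 CPM in untreated and to 2055 and 2620.0 CPM in resistant libraries, with KRT8 and KRT18 lower in both resistant libraries than in both untreated ones. Of the other cell types' markers, PRSS1 and INS had 0 counts in every library. That allows up to 0.0788 to 0.0995 CPM on raw library totals, without TMM factors (3 counts, counting error only). PTPRC was at 0.134 CPM or less and DCN at 0.069 CPM or less. The 5 fibroblast markers summed to 21.3 and 24.1 CPM in untreated and 111 and 72.0 CPM in resistant libraries, mostly COL3A1. The leukocyte markers summed to 6.72 and 6.81 against 2.21 and 2.22 CPM, mostly CD14, and 3 endothelial ones to between 0.977 and 8.42 CPM. Their part in the results was not tested. Resistant replicate 2 carries AMG511 as its treatment tag but AMG510 in its title, and stayed in the resistant group.

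The mitotic genes share letters in their promoters that the choice of members did not use. The promoter windows run from 250 bases before to 50 after a RefSeq transcription start (build GRCh38.p14, whereas the counts rest on GRCh37), and 43 of the 50 genes had at least 1 such window (7 had more, and a motif in any window was counted, here and for all genes). TTTGAA or TTTAAA, the core of the cell cycle homology region bound by MuvB complexes, was found on either strand in 36 of the 43 genes (83.7%) and in 27.9% of the 27305 genes in the table. CCAAT, the box bound by NF-Y, was found in 32 of the 43 (74.4%, against 39.7%), and 26 (60.5%, against 11.2%) held both in 1 window. TTTNGCGC, a form of the E2F site, was in 3 of 43 (6.98%, against 2.17%). Within the 43, genes with and without the TTTGAA or TTTAAA core had median log2 fold changes of −0.52 (36 genes, 18 lower, 2 higher) and −0.73 (7 genes, 4 lower). Those with CCAAT had a median of −0.49 (32 genes) and those without one of −0.79 (11 genes). A match is a stretch of letters and not a measured binding site.

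The bases that end just before the start are shown for 5 genes that fell, from mitotic entry (CDC25A, CCNB1) to spindle assembly and anaphase, and for the riser ANLN, from RefSeq, build GRCh38.p14, written 5′ to 3′ on the gene's strand. Capitals mark the 3 motifs on either strand, so that a CCAAT box on the opposite strand reads ATTGG.
CDC25A, chr3:48188418-48188537, minus strand: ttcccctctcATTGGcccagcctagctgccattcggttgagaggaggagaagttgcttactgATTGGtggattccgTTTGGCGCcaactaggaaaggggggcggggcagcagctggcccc
CCNB1, chr5:69167030-69167149, plus strand: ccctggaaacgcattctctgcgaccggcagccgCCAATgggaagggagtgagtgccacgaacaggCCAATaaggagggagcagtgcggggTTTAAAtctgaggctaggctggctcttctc
PLK1, chr16:23678769-23678888, plus strand: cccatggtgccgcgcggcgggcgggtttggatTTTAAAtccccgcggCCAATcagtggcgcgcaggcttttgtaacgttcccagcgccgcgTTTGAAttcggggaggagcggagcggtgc
KIF11, chr10:92593010-92593129, plus strand: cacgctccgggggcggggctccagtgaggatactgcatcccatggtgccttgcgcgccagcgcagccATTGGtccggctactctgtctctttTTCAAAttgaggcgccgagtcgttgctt
ESPL1, chr12:53268179-53268298, plus strand: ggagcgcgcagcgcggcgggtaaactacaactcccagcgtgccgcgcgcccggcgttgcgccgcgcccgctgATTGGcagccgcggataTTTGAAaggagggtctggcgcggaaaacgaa
ANLN, chr7:36389742-36389861, plus strand: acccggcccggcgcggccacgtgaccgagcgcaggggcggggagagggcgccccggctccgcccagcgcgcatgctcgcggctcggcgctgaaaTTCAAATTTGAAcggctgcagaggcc

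CCNB1, PLK1, KIF11 and ESPL1 each hold a TTTGAA or TTTAAA core with a CCAAT box upstream of it, the arrangement known for late cell cycle promoters. CDC25A, which acts before mitosis too, has 2 CCAAT boxes and the E2F form and no such core in the bases shown. ANLN has 2 adjoining cores, 1 on each strand, and no CCAAT in the bases shown. PLK1 has a further core upstream of its CCAAT box. No rule fixed the choice of the 6 genes shown, so they do not set fallers apart from risers. Over the full windows, 16 genes that fell held a CCAAT box and 6 held none. Of the genes not called, 15 held one and 4 held none. The riser CDC25B held a core and a CCAAT box among its 4 windows.

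Among the genes of mitotic entry, 4 of 7 fell (CCNB1, CCNB2, CDC25A and CDC25C), CDC25B rose, and CCNA2 and CDK1 did not pass. The shares were 57.1% lower and 14.3% higher, against 17.4% and 16.6% of all tested genes. The 3 CDC25 phosphatases, which activate CDKs by removing inhibitory phosphates, moved apart. CDC25A, which acts at G1/S as well as at mitosis, was at 26.4 and 15.3 CPM in untreated and at 5.76 and 6.57 CPM in resistant cells (log2 fold change −1.75 with SE 0.29, adjusted p = 0.00159), so both resistant values were below both untreated ones although the untreated pair lay far apart. CDC25C, the mitotic form, was at 52.9 and 48.0 CPM in untreated and at 24.8 and 30.6 CPM in resistant cells (log2 fold change −0.87 with SE 0.18, adjusted p = 0.0047). CDC25B, which starts CDK1 activation at the centrosome, was at 337 and 309 CPM in untreated and at 717 and 661 CPM in resistant cells (log2 fold change 1.09 with SE 0.16, adjusted p = 9.22e-04). Both resistant libraries stood well above both untreated libraries for CDC25B, and the replicates of each group lay close together.

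CCNB1, the cyclin B1 that activates CDK1, was at 509 and 445 CPM in untreated and at 332 and 334 CPM in resistant cells (log2 fold change −0.52 with SE 0.16, adjusted p = 0.0312). CCNB2, another B-type cyclin, was at 125 and 115 CPM in untreated and at 79.9 and 87.9 CPM in resistant cells (log2 fold change −0.52 with SE 0.15, adjusted p = 0.026). Both cyclins were lower in both resistant than in both untreated libraries, as were 36.3% of all tested genes. CDK1 itself, the kinase these cyclins switch on, was at 67.8 and 65.3 CPM in untreated and at 62.7 and 70.0 CPM in resistant cells, with overlapping groups and no call (log2 fold change 0.00 with SE 0.15, adjusted p = 0.988). CCNA2, the cyclin A2 of S phase and G2, was lower in both resistant libraries but did not pass (−0.27, adjusted p = 0.222). The call of CCNB1 was lost without untreated replicate 1 or either resistant replicate (adjusted p up to 0.232) and that of CCNB2 without replicate 1 of either group (up to 0.188).

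Both transcription factors fell, where 17.4% of all tested genes did. MYBL2 (B-MYB), which turns the MuvB complex into an activator of mitotic genes, was at 286 and 203 CPM in untreated and at 74.3 and 87.8 CPM in resistant cells (log2 fold change −1.60 with SE 0.20, adjusted p = 3.28e-04). FOXM1, which joins MYBL2 on these promoters, was at 267 and 220.5 CPM in untreated and at 146 and 149.6 CPM in resistant cells (log2 fold change −0.72 with SE 0.17, adjusted p = 0.008). Neither factor's groups overlapped, and 36.3% of all tested genes were likewise lower in both resistant libraries. FOXM1 was not called without untreated replicate 1 (adjusted p = 0.0802), and MYBL2 stayed called under each of 12 alternatives (−1.83 to −1.30).

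Of the mitotic kinases PLK1 and AURKA with TPX2, PLK1 fell and the others did not pass. That 1 of 3 (33.3%) stands against 17.4% of all tested genes. PLK1, which drives mitotic entry, centrosome maturation and cytokinesis, was at 239 and 183 CPM in untreated and at 113 and 108 CPM in resistant cells (log2 fold change −0.93 with SE 0.18, adjusted p = 0.003). AURKA, the Aurora A kinase of spindle poles, was at 170.3 and 135 CPM in untreated and at 115 and 108 CPM in resistant cells (−0.46, adjusted p = 0.0597), and TPX2, which activates it on the spindle, was at 382 and 338 CPM in untreated and at 279 and 299 CPM in resistant cells (−0.32, adjusted p = 0.158). All 3 genes were lower in both resistant than in both untreated libraries, as were 36.3% of all tested genes. AURKA passed without untreated replicate 2 (adjusted p = 0.0298).

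Of 4 subunits of the chromosomal passenger complex 3 fell (75%, against 17.4% of all tested genes). The complex corrects faulty attachments at centromeres and then works at the midzone. AURKB, its kinase, was at 90.0 and 73.5 CPM in untreated and at 50.1 and 48.8 CPM in resistant cells (log2 fold change −0.73 with SE 0.16, adjusted p = 0.00728). BIRC5 (survivin), which docks it on centromeres, was at 173 and 144 CPM in untreated and at 90.5 and 102 CPM in resistant cells (−0.72, adjusted p = 0.00833). CDCA8 (borealin) was at 134 and 111 CPM in untreated and at 75.3 and 93.9 CPM in resistant cells (−0.54, adjusted p = 0.0364). INCENP, the scaffold that holds the other subunits, was at 64.7 and 67.9 CPM in untreated and at 64.7 and 73.0 CPM in resistant cells, with overlapping groups, and did not pass (0.06, adjusted p = 0.811). The 3 calls were lost without untreated replicate 1, and those of BIRC5 and CDCA8 also without resistant replicate 1 (adjusted p up to 0.0794, 0.0766 and 0.273).

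In the spindle checkpoint 3 of 5 genes fell (60%, against 17.4% of all tested genes). BUB1B (BUBR1), which binds CDC20 and so blocks the APC/C, was at 101 and 85.6 CPM in untreated and at 37.6 and 53.1 CPM in resistant cells (log2 fold change −1.04 with SE 0.19, adjusted p = 0.00274). MAD2L1 (MAD2), which works in the same inhibitory complex, was at 90.1 and 66.8 CPM in untreated and at 36.1 and 44.5 CPM in resistant cells (log2 fold change −0.96 with SE 0.19, adjusted p = 0.00384). BUB3, their partner at kinetochores, was at 174 and 158 CPM in untreated and at 103 and 106 CPM in resistant cells (−0.66, adjusted p = 0.00871). All resistant values of these genes were below all untreated ones, as for 36.3% of all tested genes. BUB1, a checkpoint kinase, did not pass and had overlapping groups (169.6 and 161 CPM untreated, 162 and 171 CPM resistant, log2 fold change 0.01, adjusted p = 0.971). TTK (MPS1), the kinase at the top of the checkpoint, was lower in both resistant libraries without passing (−0.42, adjusted p = 0.0875). BUB3 was not called without replicate 1 of either group (adjusted p up to 0.0673).

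All 4 subunits of the NDC80 complex, which grips microtubules at the kinetochore, fell. SPC25 was at 25.2 and 20.2 CPM in untreated and at 4.80 and 7.61 CPM in resistant cells (log2 fold change −1.87 with SE 0.27, adjusted p = 8.21e-04). NDC80 was at 82.9 and 81.0 CPM in untreated and at 34.7 and 47.6 CPM in resistant cells (log2 fold change −0.99 with SE 0.18, adjusted p = 0.00251). NUF2, which pairs with NDC80, was at 83.9 and 75.5 CPM in untreated and at 44.5 and 47.5 CPM in resistant cells (−0.79, adjusted p = 0.00368). SPC24, which pairs with SPC25, fell from 34.0 ± 0.454 CPM in untreated cells to 17.5 ± 3.97 CPM (SD, n = 2), a log2 fold change of −0.96. All 4 were lower in both resistant than in both untreated libraries, as were 36.3% of all tested genes. Each stayed called under each of 12 alternatives. The other centromere genes of the list did not pass, so 4 of 8 in this role fell (50%, against 17.4% of all tested genes). CENPA, the histone H3 variant that marks centromeres, was at 45.7 and 46.4 CPM in untreated and at 51.0 and 53.3 CPM in resistant cells (0.18, adjusted p = 0.408). CENPE, a kinetochore motor (−0.51, adjusted p = 0.141), and CENPI, a subunit of the inner kinetochore (−0.22, adjusted p = 0.413), overlapped between groups. CENPF, a large kinetochore protein, was at 382 and 343 CPM in untreated and at 217 and 337 CPM in resistant cells, and did not pass (−0.39, adjusted p = 0.186), with the groups just apart, since resistant replicate 2 lay close to the untreated libraries and replicate 1 did not.

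Of 7 spindle motors 2 fell (28.6%, against 17.4% of all tested genes) and 0 rose. KIF11 (Eg5), which pushes the spindle poles apart, was at 116 and 110.1 CPM in untreated and at 40.7 and 62.9 CPM in resistant cells (log2 fold change −1.12 with SE 0.20, adjusted p = 0.0027). KIF4A, a chromosome-bound motor, was at 138 and 114 CPM in untreated and at 60.5 and 87.3 CPM in resistant cells (log2 fold change −0.77 with SE 0.20, adjusted p = 0.0143). KIF23, a motor of the midzone needed for cytokinesis, was at 98.9 and 86.3 CPM in untreated and at 55.9 and 78.8 CPM in resistant cells (−0.46, adjusted p = 0.0833). The groups of these 3 genes did not overlap, and 36.3% of all tested genes were likewise lower in both resistant libraries. KIF14, a midbody motor, was also lower in both resistant libraries without passing (−0.52, adjusted p = 0.0923), and KIF2C (MCAK), which takes microtubule ends apart, did not pass either (−0.12, adjusted p = 0.585). KIF20A, which carries the passenger complex to the midzone, was at 207 and 174 CPM in untreated and at 187 and 225 CPM in resistant cells (0.11, adjusted p = 0.656). KIF18A, which dampens chromosome movement, was at 30.2 and 24.2 CPM in untreated and at 27.2 and 39.0 CPM in resistant cells (0.28, adjusted p = 0.344), and both overlapped between groups. With no filter on low counts, and also without resistant replicate 2, 4 of the 7 motors were called lower, KIF14 and KIF23 being the additional ones. KIF4A was not called without replicate 1 of either group (adjusted p up to 0.109).

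Of 5 spindle and cytokinesis proteins DLGAP5 fell, ANLN rose and 3 did not pass. These shares, 20% lower and 20% higher, were near the 17.4% and 16.6% of all tested genes. DLGAP5 (HURP), which stabilises spindle fibres near chromosomes, was at 128 and 111 CPM in untreated and at 57.5 and 76.1 CPM in resistant cells (log2 fold change −0.84 with SE 0.18, adjusted p = 0.00549). PRC1, which bundles the midzone, was at 159 and 149 CPM in untreated and at 119 and 119 CPM in resistant cells (−0.37, adjusted p = 0.0839). ANLN (anillin), a scaffold of the contractile ring that also binds actin, was at 348 and 297 CPM in untreated and at 431 and 579.9 CPM in resistant cells (log2 fold change 0.65 with SE 0.19, adjusted p = 0.0231), the resistant values above both untreated ones. Its call was lost without replicate 2 of either group (adjusted p up to 0.171). NUSAP1, a spindle-associated protein (−0.17, adjusted p = 0.441), did not pass. ASPM, a spindle pole protein, was at 170.2 and 157 CPM in untreated and at 87.4 and 167 CPM in resistant cells, with resistant replicate 2 inside the untreated range, and its log2 fold change of −0.36 was above 0 without resistant replicate 1.

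All 4 genes of anaphase were lower in both resistant than in both untreated libraries, as were 36.3% of all tested genes. Of the 4, 3 fell (75%, against 17.4%). ESPL1 (separase), the protease that cuts cohesin, was at 77.1 and 78.4 CPM in untreated and at 29.4 and 42.8 CPM in resistant cells (log2 fold change −1.11 with SE 0.19, adjusted p = 0.00202). PTTG1 (securin), which holds separase inactive, was at 142 and 137 CPM in untreated and at 97.7 and 104 CPM in resistant cells (−0.47, adjusted p = 0.0367). UBE2C, the ubiquitin-conjugating enzyme of the APC/C, was at 185 and 165 CPM in untreated and at 131 and 96.7 CPM in resistant cells (−0.63, adjusted p = 0.0232). CDC20, the activator of the APC/C in mitosis and the target of the checkpoint, was at 365 and 275 CPM in untreated and at 238 and 229.9 CPM in resistant cells and did not pass (−0.45, adjusted p = 0.076). The call of PTTG1 was lost when any 1 library was left out (adjusted p up to 0.23), and that of UBE2C without untreated replicate 1 or resistant replicate 2 (up to 0.158).

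Among genes of chromosome structure 3 of 5 fell (60%, against 17.4% of all tested genes). MKI67 (Ki-67), which coats mitotic chromosomes and is the usual stain for cycling cells, was at 511 and 526 CPM in untreated and at 120.2 and 261 CPM in resistant cells (log2 fold change −1.44 with SE 0.35, adjusted p = 0.0205). NCAPG, a condensin subunit, was at 107 and 94.0 CPM in untreated and at 30.8 and 60.1 CPM in resistant cells (log2 fold change −1.15 with SE 0.29, adjusted p = 0.0218), and SMC2, a condensin core protein, at 74.7 and 65.2 CPM in untreated and at 27.5 and 47.3 CPM in resistant cells (−0.90, adjusted p = 0.0204). Resistant values were below the untreated ones for all 3 genes, as for 36.3% of all tested genes. The 2 resistant values of each gene lay far apart from each other. SMC4, the core partner of SMC2, had overlapping groups (318 and 232 CPM untreated, 229.7 and 312 CPM resistant, log2 fold change −0.02, adjusted p = 0.946). TOP2A, the topoisomerase that untangles sister chromosomes, went from 914 ± 32.0 CPM in untreated cells to 712 ± 11.7 CPM (SD, n = 2) and did not pass (adjusted p = 0.105). Leaving out resistant replicate 1 or 2 gave MKI67 a log2 fold change of −0.97 or −2.11, NCAPG of −0.73 or −1.71 and SMC2 of −0.55 or −1.35. MKI67 and NCAPG were not called without either untreated replicate, nor SMC2 without replicate 1 of either group (adjusted p up to 0.196, 0.208 and 0.139).

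**Figure D2:**
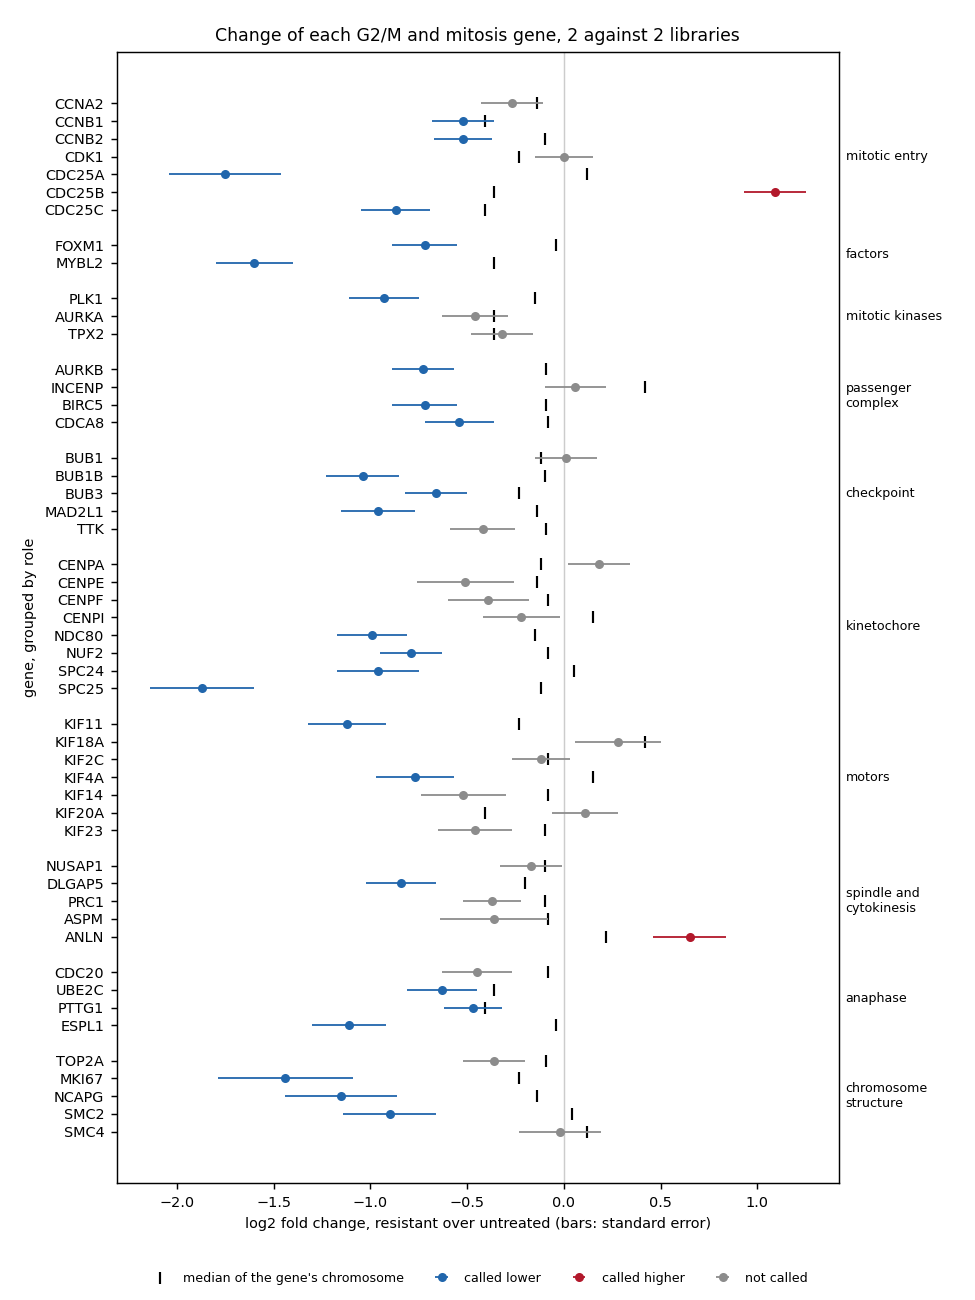
Log2 fold change of each gene, resistant over untreated, with its standard error (2 against 2 libraries), coloured by call; black ticks give the median of protein-coding genes on the gene's chromosome. CDC25B and ANLN are the called genes right of 0, and the NDC80 complex (NDC80, NUF2, SPC24, SPC25) lies left of −0.7.

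The libraries of a group differed over the mitotic genes as a whole. Summed over the 50 genes, levels were 8807 and 7844 CPM in untreated and 6061 and 6994 CPM in resistant replicates 1 and 2. Untreated replicate 2 was below replicate 1 for 44 of the 50 genes (median log2 difference −0.19, and 0.00 over all tested genes). Resistant replicate 2 was above replicate 1 for 43 of them (median 0.25, and 0.01 over all tested genes). Against the untreated mean, 46 genes were below it in resistant replicate 1 (median −0.70) and 40 in resistant replicate 2 (median −0.46). Both resistant libraries had a lower summed level than both untreated ones, and replicate 1 had the lower of the 2.

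**Figure D3:**
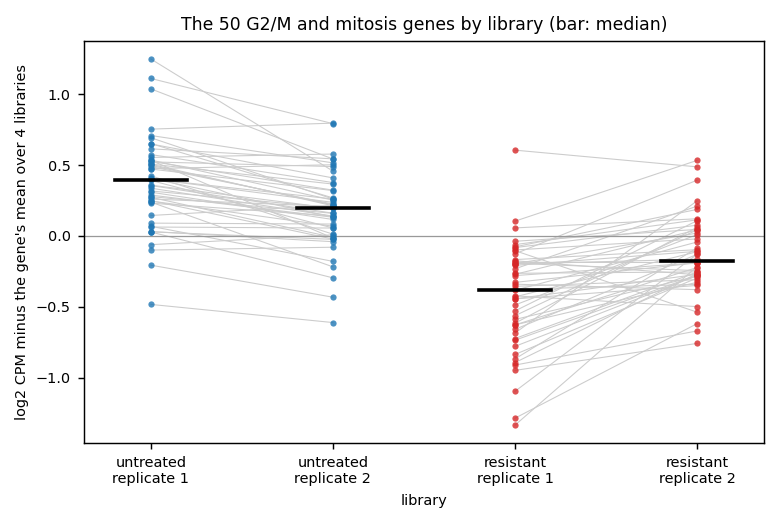
Each of the 50 genes in each library, as log2 CPM minus that gene's mean over the 4 libraries; bars are medians and grey lines join replicates of a group for 1 gene. The medians are 0.40 and 0.20 in untreated and −0.38 and −0.18 in resistant replicates 1 and 2.

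Some of these genes sit on chromosomes whose genes were lower as a whole. The median log2 fold change of tested protein-coding genes, leaving out the 50, was −0.41 on chromosome 5 (CCNB1, CDC25C, KIF20A, PTTG1) and −0.36 on chromosome 20. Chromosome 20 was split at its middle tested gene, and the median was −0.06 over the first part (CDC25B, TPX2) and −0.63 over the second (MYBL2, AURKA, UBE2C). PTTG1 and CCNB1 were −0.06 and −0.11 from their chromosome's median. UBE2C was 0.01 and AURKA 0.18 above the median of the second part, so neither was below that median. MYBL2 differed by −0.96 from it, and CDC25C by −0.44 from the −0.42 of its part of chromosome 5. INCENP and KIF18A, neither of which passed, were −0.37 and −0.14 from the median of chromosome 11 (0.42). On chromosome 7 the median was 0.22, and ANLN was 0.43 above it. Relative to their own chromosome's median, 43 of the 50 genes were lower (median −0.37). A median has as many genes below it as above it. Without chromosomes 5 and 20 the test called 21 of 41 lower (51.2%, against 17.4% of all tested genes). It called 1 higher (2.44%, against 16.6%), and the median was −0.52. Copy number was not measured.

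Other genes of the same machinery were listed by role. Of 33 further kinetochore and centromere genes 17 fell (51.5%, against 17.4% of all tested genes) and 0 rose (median −0.68). ZWINT, a kinetochore protein that anchors checkpoint factors, was at 60.1 and 50.3 CPM in untreated and at 9.21 and 17.5 CPM in resistant cells (log2 fold change −2.05 with SE 0.29, adjusted p = 0.00126). DSN1, a subunit of the MIS12 complex that holds NDC80 in place, fell from 34.9 ± 1.27 CPM in untreated cells to 15.9 ± 3.11 CPM (SD, n = 2), and CENPU, of the inner kinetochore, from 42.9 ± 3.25 CPM in untreated cells to 18.8 ± 5.45 CPM (SD, n = 2). CENPB, which binds centromere DNA, did not pass (−0.03, adjusted p = 0.911). DSN1 and CENPB lie on chromosome 20, where the median of protein-coding genes was −0.36. Of 22 further condensin, cohesin and chromosome genes 15 fell (68.2%) and 0 rose (median −0.53). They included the condensin subunit NCAPH (−1.20, adjusted p = 0.00119), the histone variant H2AZ1 (−1.41, adjusted p = 6.60e-04) and the chromatin protein HMGB1 (−1.51, adjusted p = 9.78e-04), whereas HMGB2 did not pass (−0.05, adjusted p = 0.844).

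Of 32 further spindle, motor and cytokinesis genes 8 fell (25%, against 17.4% of all tested genes), 2 rose (6.25%, against 16.6%) and 22 did not pass (median −0.37). DEPDC1B (−1.23, adjusted p = 0.00317), the chromosome motor KIF22 (−0.90, adjusted p = 0.00325) and TACC3, which crosslinks spindle fibres (−0.81, adjusted p = 0.00592), fell. The risers were NUMA1, a spindle pole protein (0.74, adjusted p = 0.00956), and CKAP5, a microtubule polymerase (0.49, adjusted p = 0.0363), both on chromosome 11 and both chosen after their values were seen. The median of protein-coding genes was 0.42 on chromosome 11, and −0.41 on chromosome 5, which holds DEPDC1B. RHOA, the GTPase of the contractile ring, did not pass (−0.15, adjusted p = 0.516). Of 17 APC/C subunits and regulators 4 fell and 0 rose (median −0.17), a share of 23.5% against 17.4% of all tested genes. The 4 were the subunits CDC27 (−0.75, adjusted p = 0.00595), CDC23 (−0.70, adjusted p = 0.00625) and ANAPC1 (−0.71, adjusted p = 0.00871), and FBXO5 (EMI1), an APC/C inhibitor (−0.76, adjusted p = 0.0163), the last named after its value was seen. CDC23 also lies on chromosome 5. UBE2S, which extends ubiquitin chains on APC/C targets, did not pass (0.21, adjusted p = 0.539).

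Among 14 tested genes that restrain mitotic entry 7 rose (50%, against 16.6% of all tested genes), 3 fell and 4 did not pass (median 0.55). The 3 that fell were 21.4%, against 17.4% of all tested genes. The kinases that inhibit CDK1 split. WEE1, in the nucleus, was at 38.5 and 37.8 CPM in untreated and at 101 and 98.0 CPM in resistant cells (log2 fold change 1.38 with SE 0.15, adjusted p = 1.56e-04). PKMYT1, its relative at membranes, was at 66.3 and 51.3 CPM in untreated and at 22.8 and 23.0 CPM in resistant cells (log2 fold change −1.36 with SE 0.18, adjusted p = 5.23e-04). Each gene's groups were well apart. GADD45A, a stress-induced protein that can inhibit CDK1 with cyclin B, was at 17.0 and 15.5 CPM in untreated and at 282 and 162 CPM in resistant cells (3.77, adjusted p = 3.84e-05). ATM, the kinase that signals DNA breaks, was higher in both resistant libraries and did not pass (0.56, adjusted p = 0.0534). The other risers were CDKN1A, GADD45B, SFN, BTG2 and CHEK2 and the other fallers PLK2 and YWHAE, all named after their values were seen. WEE1, ATM and CHEK1 (−0.09, not called) lie on chromosome 11, where the median was 0.42. PLK2 (−0.59) lies on chromosome 5, where it was −0.41.

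Among 12 components of the DREAM and MYBL2-MuvB complexes, which repress or activate the mitotic genes, 5 fell and 1 rose (median 0.01). The shares were 41.7% lower and 8.33% higher, against 17.4% and 16.6% of all tested genes. RBL1 (p107), a pocket protein of DREAM, was at 31.7 and 31.1 CPM in untreated and at 8.69 and 12.2 CPM in resistant cells (log2 fold change −1.59 with SE 0.22, adjusted p = 6.07e-04). This gene lies on chromosome 20, where the median of protein-coding genes was −0.36. TFDP1, the partner of E2F factors, fell from 132 ± 24.3 CPM in untreated cells to 63.1 ± 0.839 CPM (SD, n = 2), and RBBP4, a MuvB subunit, from 274 ± 14.1 CPM in untreated cells to 159 ± 0.686 CPM (SD, n = 2). LIN9, the MuvB subunit that contacts MYBL2 (−0.99, adjusted p = 0.016), and E2F4, the E2F factor of DREAM (−0.54, adjusted p = 0.0405), fell too, and RBL2 (p130), the pocket protein of resting cells, rose (0.55, adjusted p = 0.0298), these 3 chosen after their values were seen. MYBL1, a relative of MYBL2, did not pass (0.11, adjusted p = 0.693).

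G1/S genes were mostly lower. Of 31 tested G1/S and E2F targets, most of which copy DNA or supply nucleotides, 26 (83.9%) were called lower and 0 higher (median −1.22), beside 52% and a median of −0.52 for the mitotic genes. Of all tested genes 17.4% were called lower, and the difference between these lists was not tested. RFC3, a subunit of the clamp loader, was at 119 and 87.5 CPM in untreated and at 18.0 and 25.2 CPM in resistant cells (log2 fold change −2.25 with SE 0.22, adjusted p = 8.90e-05). CDC6, which loads the replicative helicase, went from 77.8 ± 24.3 CPM in untreated cells to 17.9 ± 3.25 CPM (SD, n = 2), and MCM6, part of that helicase, from 200.3 ± 31.0 CPM in untreated cells to 85.7 ± 11.9 CPM (SD, n = 2). RRM1, which makes deoxynucleotides, was lower without passing (−0.47, adjusted p = 0.0726). Without untreated replicate 1 fewer genes were called in several of these lists, with 8 kinetochore and centromere genes, 4 chromosome genes, 2 spindle genes, 2 APC/C genes, 3 DREAM and MuvB genes and 1 brake lower. Without resistant replicate 1 these counts were 11, 6, 6, 1, 3 and 1. No spindle gene and no DREAM and MuvB gene was called higher without untreated replicate 1, and 21 of the G1/S genes were called lower.

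**Figure D4:**
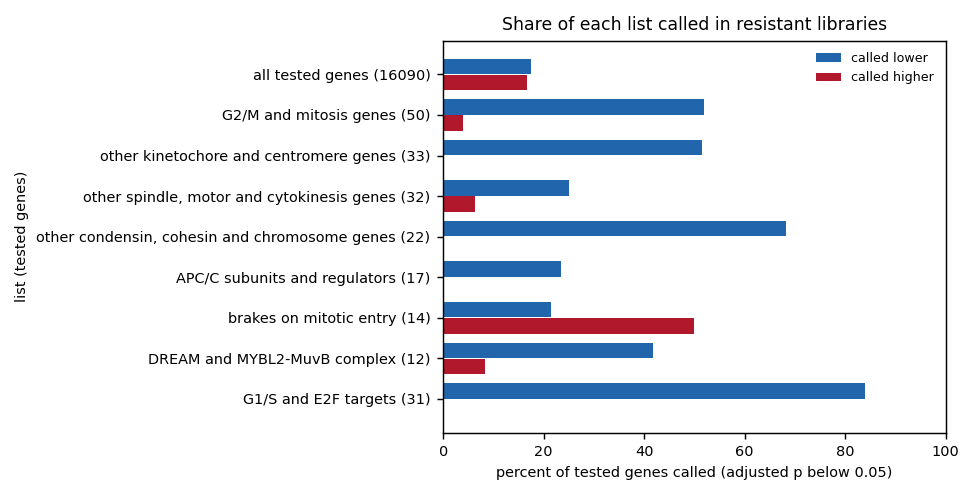
Percent of the tested genes of each list called lower (blue) or higher (red) in resistant libraries, beside all tested genes; the number tested is in brackets. The mitotic genes (52% lower, 4% higher) lie between all tested genes (17.4% and 16.6%) and the G1/S and E2F targets (83.9% and 0%), and the brakes on mitotic entry are called higher in 50% of 14 genes.

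The strand setting of the counting is not stated, so reads from overlapping genes may be mixed. Exons of 12 of the 50 genes overlapped those of another gene with a mean of at least 1 CPM, namely CCNA2, CDC25C, FOXM1, CENPA, NUF2, SPC24, KIF18A, KIF4A, KIF20A, ANLN, NCAPG and SMC4. The overlap took 33.1% of the exon bases of NCAPG (with LCORL, at 19.4 CPM), 18.5% and 7.2% of those of SMC4 (with TRIM59 and IFT80) and 15.9% or less in each of the others. Their values are uncertain to that extent. PTTG1 has the near-identical copy PTTG3P, which had between 2 and 9 counts per library against 2832 to 5245 for PTTG1.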

How the data were processed

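The authors deposited 1 table of expected counts per gene in each of 4 libraries (per the file headers), which is not adjusted for depth. Named per the submitters' processing notes, without a role, are the build GRCh37 and the tools RSEM 1.3.1 and STAR 2.7.2b. Annotation release and strand setting are not given in the sources used here. Expected counts (93.6% of values whole) were rounded. Symbols came from a table of gene names, and GENCODE 29, of another build, gave only chromosome, gene order, class and overlaps.

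Genes passing edgeR's filterByExpr (16090) were scaled by TMM. Groups were then compared in R 4.3.3 by the quasi-likelihood F-test of edgeR 4.0.16 (legacy form, robust, no covariate), and Benjamini-Hochberg adjustment ran over all tested genes. Totals were 30146559 to 38052558 per library; the common coefficient of biological variation came to 19.6%. A standard error is the log2 fold change over the square root of F. The test was run on simulated data first. It called 8.2% of 49 genes changed 1.5-fold, 36% of 50 changed 2-fold and 81.2% of 48 changed 4-fold. Of 15593 unchanged genes it called 0.0577%. The changed genes were drawn from all tested genes and not matched in level to the mitotic genes. They were also a far smaller share of all genes than the 34.0% called in the data. The adjusted threshold was thus stricter in the simulation, and these shares are not recovery rates for these data. A gene that did not pass is still not shown to be unchanged. The same fit was repeated with scaling by RLE or upper quartiles, without the filter, with at least 1 CPM in 2 libraries, DESeq2 1.42.0, limma-voom (limma 3.58.1), edgeR's newer quasi-likelihood form, a block for replicate number, a threshold of 0.01, and each library left out in turn (the lone library is then assumed to vary like the other group). Counts of members were also taken without chromosomes 5 and 20.

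The 50 genes and the other lists were chosen with earlier results of these data known, so their counts are descriptions and no list was tested. All 50 are named, with every library's value for up to 3 per role with the smallest adjusted p and for risers. From each other list up to 3 called genes with the smallest adjusted p and the most abundant gene not called are named. UHRF1 and PECAM1 matched no ID, and RPRM had too few counts to test. The value of 1 marker gene is not reported here. No sequences were shown for the 7 genes with no window in the promoter table.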

Additional observations from a re-analysis of the deposited data

How the results depend on the processing

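With each library left out in turn, between 2832 and 5041 genes were called in all, 1322 to 2493 lower and 1510 to 2548 higher. Of the 50 mitotic genes 13 to 29 were then called lower and 1 or 2 higher, with a median log2 fold change of −0.71 to −0.40. The lowest count of lower genes came without untreated replicate 1. At an adjusted p below 0.01, 2832 genes were called in all (1388 lower, 1444 higher), 17 of the 50 lower and 1 higher. Other scalings, filters and tests gave 26 to 29 lower and 2 higher. Of 28 called genes 14 kept their call under all 12 alternatives that refit the test, and 8 of those not called passed under at least 1. Of 600 values of single genes 18 changed sign, each of a gene not called. They were CDK1 with RLE (0.01), upper-quartile scaling (0.02), no filter (0.00), the stricter filter (0.03) and DESeq2 (0.01), and SMC4 with upper-quartile scaling and with the stricter filter (0.01 each). The others came from leaving out 1 library, over which CDK1 ranged from −0.09 to 0.09, SMC4 from −0.26 to 0.25, ASPM from −0.91 to 0.04, BUB1 from −0.04 to 0.07, KIF20A from −0.03 to 0.26, INCENP from −0.04 to 0.16 and KIF18A from −0.00 to 0.53. The cause was not tested. With the replicate number as a block, 5275 genes were called (2682 lower, 2593 higher), and 26 of the 50 lower and 2 higher. Nothing but a number joins the replicates, and deviations of same-numbered libraries correlated at −0.0604 across genes.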

Other observations

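In 9 of the 50 genes (18%) resistant replicate 2 was more than 1.5-fold above replicate 1, and in 0 more than 1.5-fold below, where 9.33% of all tested genes were above and 9.38% below. The 9, named after their values were seen, were MKI67 (1.12 in log2), NCAPG (0.96 in log2), ASPM (0.93 in log2), SMC2 (0.78 in log2), KIF14 (0.68 in log2), SPC25 (0.66 in log2), CENPF (0.64 in log2), KIF11 (0.63 in log2) and CENPE (0.60). In the untreated pair CDC25A was the 1 gene of the 50 past 1.5-fold, lower in replicate 2 by 0.79 in log2. Of all tested genes 13.9% were past 1.5-fold higher and 3.96% past 1.5-fold lower there. Of the 7 genes lower in resistant replicate 2 than in replicate 1, UBE2C differed most, by −0.43 in log2. No difference between single libraries was tested, since each is 1 library.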
